A study of Homo sapiens with 36 samples.

Results

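RNA sequencing measured transcript levels in LNCaP cells after 72 h with the CDK4 inhibitor atirmociclib at 2 µM (Atirmociclib, 3 libraries) and in cells given vehicle for the same time (Vehicle, 3 libraries). These 6 libraries were chosen by their treatment, dose and time labels alone, out of 36 libraries in 12 groups, and the comparison is described across all genes. LNCaP is an established human prostate cancer cell line of luminal type that responds to androgen, so the libraries describe 1 cell line and not prostate tissue. The labels also give the vehicle wells a dose of 2 µM, and both groups came from wells seeded for the 72 h harvest. Atirmociclib at 1 µM, AU2-94 at 2 µM (another CDK4-selective inhibitor) and ribociclib at 2 µM (an inhibitor of CDK4 and CDK6), each with 3 libraries at 72 h, are used only to show where atirmociclib at 2 µM differs.

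CDK4, bound to a D-type cyclin, phosphorylates the retinoblastoma protein RB in the G1 phase of the cell cycle. Phosphorylated RB releases E2F transcription factors, which switch on genes for DNA replication, nucleotide supply and S phase histones, whereas many mitotic genes are switched on later through the MuvB complex with MYBL2 and FOXM1. In luminal prostate cells androgen induces a separate set of genes, among them KLK3, which encodes prostate-specific antigen, and TMPRSS2.

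Values are the authors' normalised counts per gene. Their sums per library were 22577368 to 22692555 with atirmociclib and 21436280 to 21617499 with vehicle, and these sums describe the scale and not the sequencing depth. Across the 16341 genes tested, log2 values correlated between replicates at Pearson's r of 0.982 to 0.985, and between treated and vehicle libraries at 0.963 to 0.966. Mitochondrial transcripts made up 8.33% to 8.66% of the summed values with atirmociclib and 6.76% to 7.42% with vehicle. All 10 luminal markers checked were found in every library, with KRT19 lowest at 57.9 normalised counts or more, and the basal markers KRT5, KRT6A and KRT17, the neuroendocrine markers CHGA and INSM1, and the lymphocyte marker CD3E were at 0 in all 6. Other members of the same lists, among them KRT14, ENO2, SYP and VWF, had signal and are described below.

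Among the gene lists examined, cell cycle genes fell and a smaller set of androgen-induced and hypoxia-linked genes rose with atirmociclib at 2 µM. A gene was called when its p-value adjusted over all genes (limma, Benjamini-Hochberg) was at most 0.05 and its absolute log2 fold change was at least 1. By that rule 633 genes were called higher (3.87% of those tested) and 599 lower (3.67%). Only 37 of the 633 rises belong to any of the 31 lists, against 185 of the 599 falls, so the lists describe few of the rises. Long non-coding RNAs made up 183 of the called rises, or 5.56% of those tested, against 3.42% of protein-coding genes. The adjusted p alone was passed by 3412 genes that rose (20.9%) and 3211 that fell (19.6%), and the median log2 fold change of all genes tested was 0.00. The shares called and past the adjusted p stand beside the counts of each list against vehicle below. Called rises were mostly of rarer transcripts, with a median of 40.7 normalised counts over the 6 libraries, against 185 for called falls. Values of the 2 groups did not overlap for 600 of the 633 called rises and 580 of the 599 called falls, and among all genes tested 25.1% had every treated value above vehicle and 24.5% every treated value below. For 44 called rises and 11 called falls the lower group never exceeded 3 normalised counts, and no fold change is given for these.

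The drug's target and the pathway around it were examined first. Of 31 genes of the CDK4 and RB pathway that were tested, 19 fell and 3 rose, 12 falls and no rises were called, and the median log2 fold change was -0.80. CDK4, which encodes the target, was at 2508, 2228 and 2125 with atirmociclib and 2265, 2590.0 and 2404 with vehicle, and the groups overlapped (log2 fold change -0.08 ± 0.06 (SE), adjusted p = 0.33). CDK6, the sister kinase, was barely expressed, at 17.5, 15.7 and 26.8 with atirmociclib and 14.8, 16.2 and 19 with vehicle (log2 fold change 0.22 ± 0.39 (SE), adjusted p = 0.69). CCND1, the D-type cyclin that activates CDK4, rose from 7840.5, 8064 and 7657 to 11396, 11642 and 12135 (log2 fold change 0.58 ± 0.05 (SE), adjusted p = 1.7e-08). All 3 treated libraries lay above all 3 vehicle libraries. RB1, which encodes RB itself, was at 912, 902 and 978 with atirmociclib and 998, 1085 and 977 with vehicle (log2 fold change -0.13 ± 0.07 (SE), adjusted p = 0.15), and at -0.21 with an adjusted p of 0.029 when libraries were scaled to equal totals. The RB relative RBL1 fell 2.55-fold (log2 fold change -1.35 ± 0.12 (SE), adjusted p = 2.8e-08).

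CDKN2C encodes p18, an inhibitor protein that binds CDK4 and CDK6, and lies at chr1:50960745-50974634, plus strand of GRCh38. Its values were 57.7, 73 and 57.9 with atirmociclib and 443, 373 and 446 with vehicle, the largest fall among these 31 genes (log2 fold change -2.73 ± 0.13 (SE), adjusted p = 9.7e-12). CDKN1A, the p21 inhibitor, fell as well, from 2943 ± 163 to 1687 ± 26.4 (SD, n = 3, adjusted p = 9.3e-10). The change of CDKN1B, which encodes p27, was small (log2 fold change -0.20 ± 0.06 (SE), adjusted p = 0.012), and its adjusted p exceeded 0.05 without atirmociclib replicate 3 (0.065) and without vehicle replicate 2 (0.063). Downstream of RB, CCNE2 was at 101, 116.1 and 114 with atirmociclib and 632, 543 and 485 with vehicle (log2 fold change -2.31). CCNA2 was at 315, 314 and 338 with atirmociclib and 1458, 1539 and 1499 with vehicle (log2 fold change -2.21). These cyclins activate CDK2 in S phase, and neither overlapped between the groups. CCNE1 did not share this change (log2 fold change 0.09 ± 0.11 (SE), adjusted p = 0.56), and its groups overlapped. CDK2 itself, E2F1 and E2F8 fell, with log2 fold changes of -1.06, -1.06 and -2.24. Of the exonic bases of CDK4 and CCNE2, 44.2% and 37.0% are shared with a gene on the opposite strand, and the strand setting of the counting is not given.

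Genes of DNA replication fell. Of 53 replication genes tested, 43 fell, 1 rose and 22 were called lower, with a median log2 fold change of -0.89. CLSPN, which encodes the checkpoint adaptor claspin, fell most, with values of 413, 323 and 335 with atirmociclib and 1431, 1527 and 1441 with vehicle (log2 fold change -2.04 ± 0.10 (SE), adjusted p = 1.5e-11). PCNA, the sliding clamp of the replicative polymerases, was at 3316, 3373 and 3219.7 in the vehicle libraries and 1131, 982 and 1083 in the treated libraries (log2 fold change -1.63 ± 0.06 (SE), adjusted p = 1.3e-13). The loading factors CDC45 and MCM10 and the chromatin regulator UHRF1 were called lower at log2 fold changes of -1.36, -1.52 and -1.61, and the helicase subunit MCM2 fell by less (log2 fold change -0.85 ± 0.07 (SE), adjusted p = 1.8e-08). Of 15 genes of deoxynucleotide synthesis 13 fell and 5 were called, with a median of -0.77. RRM2, the regulated subunit of ribonucleotide reductase, was at 967, 819 and 822 with atirmociclib and 4362, 3998 and 3624 with vehicle (log2 fold change -2.20 ± 0.13 (SE), adjusted p = 9.5e-11). TYMS and TK1, which make thymidylate by the de novo and salvage routes, fell 4.22-fold and 2.37-fold. No replication or nucleotide gene was called higher.

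The histone genes that are transcribed in S phase had the lowest median of the 31 lists. Of 46 replication-dependent histone genes tested, out of 54 of the chosen list in the table, 45 fell and 44 were called lower. All 46 had every treated value under every vehicle value, against 24.5% of all genes tested. The list is not complete: it leaves out the copies H4C15 and H2AC19, whose values overlapped between the groups. H4C15 was at 2424, 892 and 2327 with atirmociclib and 7210, 2139 and 10877 with vehicle, and H2AC19 at 2394, 0 and 808 against 462, 1375 and 203. The median log2 fold change of the 46 listed genes was -2.41, and it lay between -2.49 and -2.36 under all alternative settings. The linker histone gene H1-5 (chr6:27866792-27867588, minus strand) was at 1224, 1318 and 1420.1 with atirmociclib and 10804, 11189.5 and 11465 with vehicle, a fall of 8.45-fold (log2 fold change -3.08 ± 0.05 (SE), adjusted p = 4.8e-18). H1-4, another linker histone, fell 3.61-fold. Among core histones H2AC16 was at 492, 466 and 462 with atirmociclib and 3805, 3662 and 3820.3 with vehicle (log2 fold change -2.99 ± 0.07 (SE), adjusted p = 2.9e-16), H2BC14 at 499, 474 and 525 with atirmociclib and 3529, 3449 and 3820.1 with vehicle (log2 fold change -2.85 ± 0.09 (SE), adjusted p = 1.5e-14) and H4C1 at 31.1, 49.8 and 44 with atirmociclib and 323, 387 and 301 with vehicle (log2 fold change -3.01 ± 0.17 (SE), adjusted p = 6.9e-11). H2AC12 and H3C12 had log2 fold changes of -2.92 and -2.94, but H3C12 shares 40.3% of its exonic bases with H2AC17 on the same strand. Replicates of both groups were close together for H1-5, H2AC16 and H2BC14.

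Some histone genes have near-identical copies, between which reads could be split. H4C14 had the largest fall of all genes by log2 fold change, but its values were 8.63, 1319.8 and 13.6 with atirmociclib and 5397, 12680.3 and 2256 with vehicle (log2 fold change -6.56 ± 1.15 (SE), adjusted p = 0.00016), so replicate 2 stood far above the other treated libraries. H4C15 is identical to H4C14 over its whole transcript, and the sum of the 2 genes was 2432, 2212 and 2341 with atirmociclib and 12607, 14819 and 13133 with vehicle. The sum was 5.81-fold lower with atirmociclib, with SDs of 111 and 1156 around means of 2328 and 13519.7. H4C12, whose values were 0, 0 and 53.9 with atirmociclib and 872, 185 and 162 with vehicle, shares 99.2% of its bases with H4C11, and its adjusted p exceeded 0.05, at up to 0.094, without vehicle replicate 1, without either of atirmociclib replicates 1 and 2, and without the trend. Summed with H4C11 it was at 1394, 1591 and 1637 against 7115, 6698 and 5546, or 4.19-fold lower. H2AC18 and H2AC19, also identical, summed to 4522, 4326 and 4094 with atirmociclib and 12563, 12992 and 13243 with vehicle, or 3.00-fold lower, and H3C15 with H3C14 was 4.87-fold lower. For these pairs the sums are the steadier values.

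**Figure D1:**
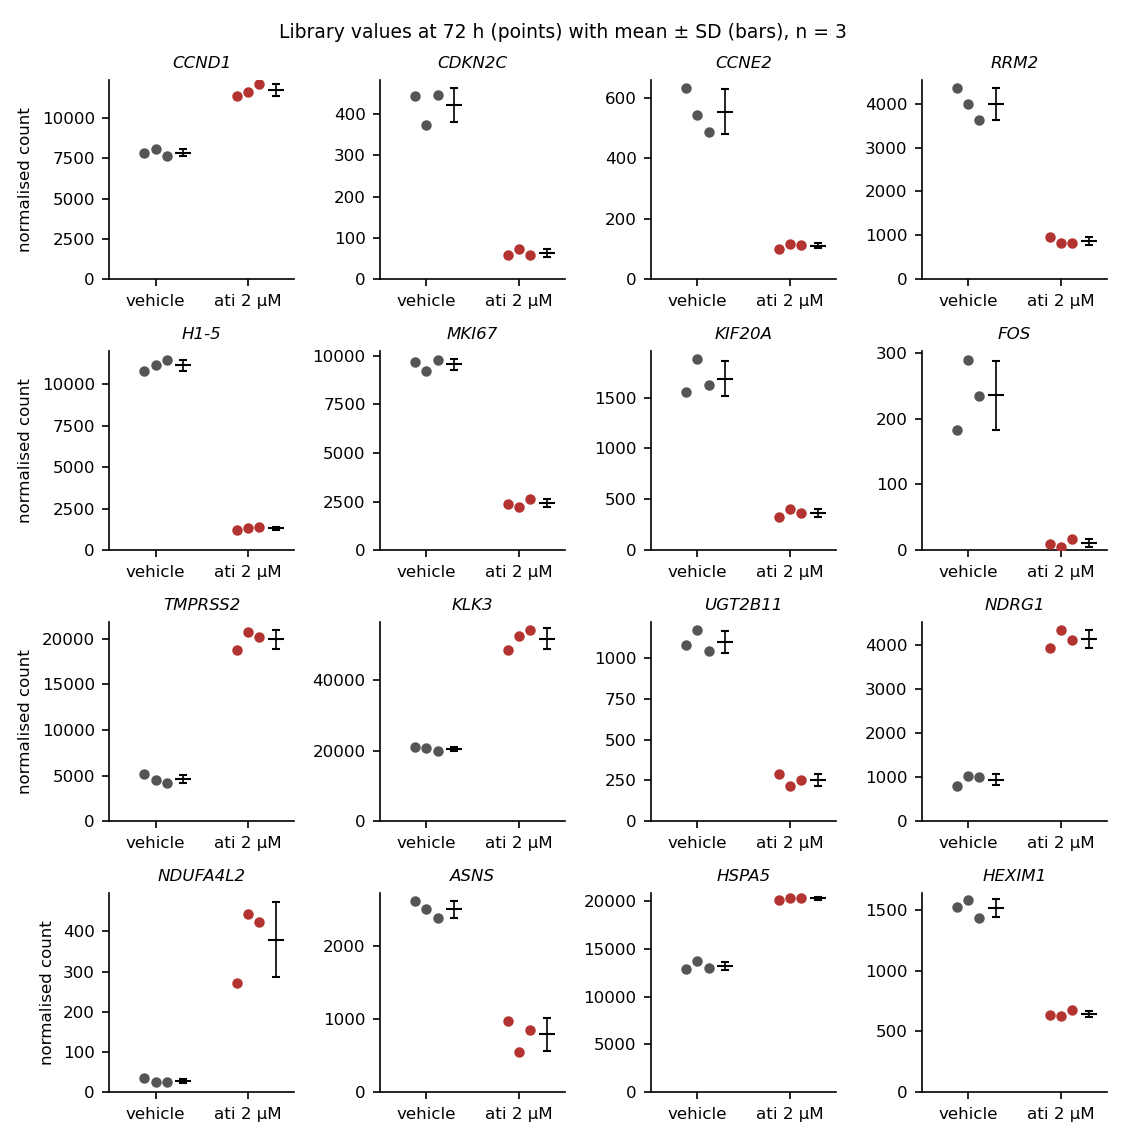
Normalised counts of 16 genes in each of the 6 libraries at 72 h (points; vehicle grey, atirmociclib 2 µM red), with the mean and SD of 3 libraries beside them and y axes that start at 0. In all 16 genes the groups are apart, with CCND1, TMPRSS2, KLK3, NDRG1, NDUFA4L2 and HSPA5 higher and the others lower with atirmociclib.

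Mitotic genes fell too. Of 44 mitotic cyclins, kinases and regulators tested, 40 fell and 27 were called lower, none rose, and the median log2 fold change was -1.23. MKI67, which encodes the proliferation marker Ki-67 and lies at chr10:128096659-128126423, minus strand, was at 2372, 2231 and 2626 with atirmociclib and 9672, 9199 and 9766 with vehicle (log2 fold change -1.99 ± 0.06 (SE), adjusted p = 4e-15). AURKB, the kinase of the chromosomal passenger complex, was at 191, 198 and 197 with atirmociclib and 879, 743 and 882 with vehicle (log2 fold change -2.09 ± 0.10 (SE), adjusted p = 6e-12). PLK1, AURKA and TOP2A were called lower at -1.81, -1.48 and -1.95 on the log2 scale. PTTG1, which encodes securin, fell 4.11-fold, and CDC20, which activates the ligase that destroys it, fell 2.35-fold. The falls were not equal within the group. CCNB1, the mitotic cyclin, was at 1570.3, 1729 and 1537 with atirmociclib and 2752, 2981 and 2750.4 with vehicle and was not called (log2 fold change -0.81 ± 0.06 (SE), adjusted p = 6.6e-09), and its partner CDK1 fell 2.06-fold. The transcription factors FOXM1 and MYBL2, which act on mitotic promoters, fell 2.59-fold and 3.89-fold.

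Of 61 kinetochore, checkpoint, condensin and kinesin genes, 57 fell and 34 were called lower, with a median of -1.12. KIF20A, a kinesin of cytokinesis, was at 329.8, 403 and 362 with atirmociclib and 1557, 1879 and 1621 with vehicle (log2 fold change -2.20 ± 0.09 (SE), adjusted p = 1.2e-12). KIF11, which separates the spindle poles, CENPF, a kinetochore protein, and the outer kinetochore genes NDC80, SPC25 and SKA1 were called lower at -1.72, -1.69, -1.82, -2.14 and -1.94 on the log2 scale. TUBA1B, an alpha-tubulin gene, was the most abundant called fall, at 14094, 14341 and 14824 with atirmociclib and 34243, 34177 and 33944 with vehicle (log2 fold change -1.24 ± 0.03 (SE), adjusted p = 3.6e-15). Genes of homologous recombination and the Fanconi pathway had a smaller change, with 27 of 42 lower, 13 called and a median of -0.59. BRCA1, BRCA2 and BLM were called lower at -1.12, -1.14 and -1.32, and the nuclease gene EXO1 and the helicase gene HELLS fell 3.68-fold and 3.03-fold. Among the genes named, TYMS, TUBA1B, DDIT3, BCL2L1 and ACTA2 share 39.9%, 44%, 27.2%, 41.3% and 29.1% of their exonic bases with a gene on the opposite strand, so reads of the pairs may not be told apart.

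The promoters of 4 genes are shown because they belong to the replication and mitotic genes that fell most and hold a motif of the E2F or MuvB route. They are CLSPN at chr1:35769949-35770228 (minus strand), PCNA at chr20:5126593-5126872 (minus strand), MKI67 at chr10:128126394-128126673 (minus strand) and GTSE1 at chr22:46296620-46296899 (plus strand), from RefSeq on GRCh38.p14, each read 5′ to 3′ in the direction of the gene and ending 30 bases after the start site. GTSE1, a regulator of the G2 and M phases, had a log2 fold change of -1.99 ± 0.10 (SE, adjusted p = 8.7e-12). Capitals mark E2F sites (TTTGGCGC, TTTCGCGC or TTTCCCGC), the cell cycle genes homology region (TTTGAA), which MuvB binds, and CCAAT boxes (CCAAT), each on either strand. In MKI67 a homology region and a CCAAT box overlap by 1 base.
CLSPN: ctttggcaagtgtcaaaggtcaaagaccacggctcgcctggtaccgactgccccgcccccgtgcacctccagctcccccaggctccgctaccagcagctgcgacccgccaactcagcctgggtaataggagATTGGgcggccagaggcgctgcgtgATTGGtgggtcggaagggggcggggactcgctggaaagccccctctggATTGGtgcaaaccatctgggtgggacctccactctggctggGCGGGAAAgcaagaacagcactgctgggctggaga
PCNA: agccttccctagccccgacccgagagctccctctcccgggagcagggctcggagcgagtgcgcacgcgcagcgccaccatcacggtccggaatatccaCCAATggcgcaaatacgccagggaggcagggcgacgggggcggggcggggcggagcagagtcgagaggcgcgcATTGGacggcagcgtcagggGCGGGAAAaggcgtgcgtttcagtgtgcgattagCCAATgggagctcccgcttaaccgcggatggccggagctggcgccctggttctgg
MKI67: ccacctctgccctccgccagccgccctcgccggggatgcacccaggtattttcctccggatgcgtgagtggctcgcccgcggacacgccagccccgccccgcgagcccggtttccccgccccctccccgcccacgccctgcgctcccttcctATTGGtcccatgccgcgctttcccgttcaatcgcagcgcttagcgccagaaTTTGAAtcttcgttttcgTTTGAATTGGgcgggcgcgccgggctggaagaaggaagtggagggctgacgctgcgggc
GTSE1: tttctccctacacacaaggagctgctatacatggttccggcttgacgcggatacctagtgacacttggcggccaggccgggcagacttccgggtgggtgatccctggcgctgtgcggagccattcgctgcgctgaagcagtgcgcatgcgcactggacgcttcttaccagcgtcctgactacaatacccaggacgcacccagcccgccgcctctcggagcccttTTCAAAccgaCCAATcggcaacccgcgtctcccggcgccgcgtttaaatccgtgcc

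Windows from 250 bases before to 50 after the start site were matched by symbol for 11639 of the genes tested, 380 of those called higher and 450 of those called lower. An E2F site of any of the 3 forms was in 12.4% of the windows of called falls, 1.32% of those of called rises and 4.62% of all windows. The homology region was in 24.7%, 11.6% and 9.71%, and the CCAAT box in 49.3%, 35.8% and 37.0%. The AP-1 site (TGANTCA, bound by FOS and JUN dimers) ran the other way, in 2.00% of the windows of called falls, 9.21% of those of called rises and 4.38% of all. The cyclic AMP response element (TGACGTCA), the core of the hypoxia response element (ACGTG) and the E-box (CACGTG) were in 4.22%, 24.4% and 6.67% of the windows of called falls, 2.89%, 24.5% and 9.74% of those of called rises, and 3.21%, 26.5% and 9.99% of all. Between the replication genes and the mitotic regulators the motifs were divided. An E2F site was in 21 of 46 windows of replication genes and 2 of 34 of the mitotic regulators, and the homology region in 2 of 46 and 19 of 34. Replication-dependent histones did not follow this division, with an E2F site in 11 of 41 windows and the homology region in 15 of 41. These shares are counts of letters in windows and were not tested.

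Many androgen-induced genes rose. Of 50 tested, 32 rose, 3 fell and 12 were called higher, with a median log2 fold change of 0.44 against 0.00 for all genes. TMPRSS2, a serine protease gene at chr21:41464300-41531116, minus strand, was at 18747, 20755 and 20223 with atirmociclib and 5129, 4504 and 4205 with vehicle, a rise of 4.33-fold (log2 fold change 2.11 ± 0.07 (SE), adjusted p = 2.2e-14). KLK3, at chr19:50854915-50860764, plus strand, was at 48388, 52456 and 54148 with atirmociclib and 20972, 20799 and 19802 with vehicle (log2 fold change 1.33 ± 0.05 (SE), adjusted p = 5.7e-14), and its neighbour KLK2 rose 2.07-fold. Neither gene overlapped between the groups. MAF, a transcription factor gene, was at 1463, 1353 and 1386 with atirmociclib and 295, 268 and 221 with vehicle (log2 fold change 2.43 ± 0.09 (SE), adjusted p = 2.2e-13), and NDRG1, a gene that both androgen and hypoxia induce, at 3944, 4349.7 and 4118 with atirmociclib and 798, 1038 and 1010.0 with vehicle (log2 fold change 2.13 ± 0.10 (SE), adjusted p = 4.8e-12). FKBP5, a co-chaperone gene and a well-known androgen target, did not pass, with 4693, 3647 and 3981 with atirmociclib and 3446, 3579 and 3299 with vehicle (log2 fold change 0.25 ± 0.10 (SE), adjusted p = 0.051). Its adjusted p was 0.019 without atirmociclib replicate 2 and 0.038 when only the 6 libraries compared were fitted. With the replicate block it was 0.062, and over all settings it reached 0.26.

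Of 22 genes for prostate luminal factors 12 rose, 2 fell and 1 was called, with a median of 0.22. Over all genes tested 20.9% rose and 19.6% fell, with 3.87% called higher and 3.67% called lower, so the 1 call lies near the general share. ELF5, an epithelial transcription factor gene of low level, was called higher, at 46.2, 52.5 and 51.2 with atirmociclib and 14.1, 28.2 and 16.4 with vehicle. Genes that androgen represses, with those of steroid glucuronidation, moved both ways, with 5 of 13 lower, 3 higher and a median of -0.50. In this list 1 rise and 4 falls were called, and log2 fold changes ran from -2.12 to 2.70. All 4 called falls were UGT2B genes, whose enzymes attach glucuronic acid to steroids. UGT2B11 was at 289, 218 and 250.4 with atirmociclib and 1078, 1172 and 1041 with vehicle (log2 fold change -2.12 ± 0.12 (SE), adjusted p = 7.1e-11). UGT2B15 was at 1208, 1189 and 1343 with atirmociclib and 2886, 3308 and 3168 with vehicle (log2 fold change -1.32). For UGT2B17 and UGT2B28 the log2 fold changes were -1.05 and -1.22, and none of the 4 genes overlapped between the groups. FOLH1, which encodes prostate-specific membrane antigen, rose (log2 fold change 0.48 ± 0.03 (SE), adjusted p = 1.2e-09).

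Hypoxia targets and genes of collagen modification rose in part, with 19 of 33 higher, 2 lower, 6 called higher and a median of 0.48. Log2 fold changes in this list ran from -1.11 to 5.37. EGLN3, a member of the list, overlapped between the groups (log2 fold change 0.18 ± 0.21 (SE), adjusted p = 0.54). NDUFA4L2, a mitochondrial protein that HIF-1 induces, was at 273, 443 and 422 with atirmociclib and 34.9, 27 and 25.9 with vehicle (log2 fold change 3.63 ± 0.36 (SE), adjusted p = 1.8e-07). PLOD2, a collagen lysyl hydroxylase, was at 142, 183 and 194 with atirmociclib and 2.08, 4.28 and 3.52 with vehicle (log2 fold change 5.37 ± 0.33 (SE), adjusted p = 2.6e-10), so it was close to undetected in vehicle. PFKFB4, which controls glycolytic flux, was called higher at 1.52, and VEGFA rose without being called, at 3047, 3225 and 3163 with atirmociclib and 1792, 1703 and 1792 with vehicle (log2 fold change 0.83 ± 0.08 (SE), adjusted p = 1e-07). SLC2A1, the glucose transporter, was at 1804, 1763 and 1747 with atirmociclib and 1299, 1669 and 1299.5 with vehicle (log2 fold change 0.33 ± 0.12 (SE), adjusted p = 0.036), and its adjusted p exceeded 0.05 in 5 of the 6 fits that left out 1 library, reaching 0.13. Of 25 glycolytic genes 11 rose, 1 fell and 2 were called, with a median of 0.18, or 0.105 with equal totals. The counts of both lists stand beside 20.9% higher, 19.6% lower and 3.87% called higher of all genes tested. ALDOC, an aldolase gene, rose 2.99-fold (log2 fold change 1.58 ± 0.10 (SE), adjusted p = 2.9e-10) and the lactate exporter gene SLC16A3 was at 15.4, 47.7 and 30.6 with atirmociclib and 3.24, 5.85 and 4.66 with vehicle. LDHA rose 1.47-fold, and GAPDH was at 55485, 54831 and 54078 with atirmociclib and 53553, 54343 and 57089 with vehicle (log2 fold change -0.00 ± 0.04 (SE), adjusted p = 0.94).

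Immediate early genes had no common direction. Of 35 tested, 10 rose, 9 fell, 2 were called higher and 4 lower, and the median was 0.00. Over all genes tested 20.9% rose and 19.6% fell, with 3.87% called higher and 3.67% lower. Each count of this list lies above its share, with 4 of 35 called lower, and the list was not tested as a set. FOS, which encodes a subunit of AP-1 and lies at chr14:75278826-75282230, plus strand, was at 9.06, 5.46 and 17 with atirmociclib and 182, 289 and 235 with vehicle, a fall of 22-fold (log2 fold change -4.46 ± 0.50 (SE), adjusted p = 8.1e-07). FOSB fell too, from 59.5, 45 and 49 to 24, 20.4 and 11.2 (log2 fold change -1.47 ± 0.41 (SE), adjusted p = 0.0074). Other AP-1 subunits rose. FOSL2 was at 1106, 1066 and 1077 with atirmociclib and 418, 476 and 391 with vehicle (log2 fold change 1.34 ± 0.08 (SE), adjusted p = 1.9e-10) and JUN at 1763, 1715 and 1751 with atirmociclib and 974, 1030.4 and 1066 with vehicle (log2 fold change 0.77 ± 0.06 (SE), adjusted p = 3.9e-09). EGR1 was at 23, 40.8 and 46 with atirmociclib and 45.1, 43.7 and 36.2 with vehicle, and the groups overlapped (log2 fold change -0.23 ± 0.26 (SE), adjusted p = 0.5). ID1 and ID3, inhibitors of basic helix-loop-helix factors, fell. ID1 was at 424, 196 and 186 with atirmociclib and 504, 540.1 and 529.5 with vehicle (log2 fold change -1.07 ± 0.30 (SE), adjusted p = 0.0074), and ID3 at 709, 391 and 384 with atirmociclib and 777, 798 and 811 with vehicle (log2 fold change -0.74 ± 0.20 (SE), adjusted p = 0.0063). Atirmociclib replicate 1 was the highest treated library for both ID genes and lay nearest to vehicle. MYC rose slightly (log2 fold change 0.26 ± 0.05 (SE), adjusted p = 0.00023). MXD3, which pairs with MAX and opposes MYC, was the 1 called gene of 11 in the MAX network (log2 fold change -1.60 ± 0.16 (SE), adjusted p = 2.5e-07). It shares 19.5% of its exonic bases with RAB24 on the same strand and 24.2% with PRELID1 on the opposite strand.

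Genes of growth and protein synthesis had small changes. The counts that follow stand beside 20.9% higher and 19.6% lower of all genes tested. Of 50 genes of ribosome biogenesis 25 fell and 4 rose, none was called, and the median was -0.19. NCL, which encodes nucleolin, was at 19729, 18416 and 19036 with atirmociclib and 24213, 24964 and 25658 with vehicle (log2 fold change -0.39 ± 0.04 (SE), adjusted p = 2.3e-07). The 78 cytosolic ribosomal protein genes had a median of -0.01 with 13 higher, 8 lower and none called, and RPLP0 overlapped between the groups (log2 fold change -0.01 ± 0.04 (SE), adjusted p = 0.84). Of 76 nuclear-encoded respiratory chain genes 22 fell, 12 rose and none was called. The 13 mitochondrially encoded genes had 9 rises and a median of 0.32. MT-CO1 was at 457039, 465069 and 464019 with atirmociclib and 351510.0, 365316 and 373563 with vehicle and MT-ND1 at 152100.0, 158682 and 165906 with atirmociclib and 117361, 111812 and 124754 with vehicle. With quantile normalisation the median of these 13 genes was 0.03, while equal totals gave 0.25 and median-of-ratios factors 0.32. Of 31 cholesterol genes 11 rose and 9 fell, with FADS1, a fatty acid desaturase, the 1 called (log2 fold change -1.19 ± 0.09 (SE), adjusted p = 6.7e-09). FASN, fatty acid synthase, was at 96119, 93921 and 96740.5 with atirmociclib and 89557, 97057 and 97449 with vehicle (log2 fold change 0.01 ± 0.04 (SE), adjusted p = 0.79).

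Genes of the ER stress and amino acid response went in opposite directions. Of 37 tested, 17 rose and 17 fell, 6 were called lower and none higher, and the median was 0.20, which became 0.051 without vehicle replicate 1, 0.11 without vehicle replicate 2 and 0.125 with equal totals. ATF4, the transcription factor of the amino acid response, was at 3467, 3896 and 3675 with atirmociclib and 7054, 6841 and 6525 with vehicle (log2 fold change -0.89 ± 0.05 (SE), adjusted p = 1.6e-10). ASNS, asparagine synthetase, was at 979.6, 548 and 845 with atirmociclib and 2609.6, 2495 and 2379.5 with vehicle (log2 fold change -1.70 ± 0.16 (SE), adjusted p = 5.8e-08). CHAC1, a glutathione-degrading enzyme, was at 60.5, 55.2 and 52.8 with atirmociclib and 304, 278 and 285 with vehicle (log2 fold change -2.34 ± 0.27 (SE), adjusted p = 1.3e-06), and the amino acid transporter gene SLC7A5 fell 2.95-fold. No treated value of these 4 genes reached a vehicle value. The ER chaperone gene HSPA5 rose from 12899, 13708 and 12987 to 20054, 20307 and 20327 (log2 fold change 0.62 ± 0.03 (SE), adjusted p = 3.7e-11). XBP1 fell (log2 fold change -0.30 ± 0.08 (SE), adjusted p = 0.0039), and DDIT3, which encodes the stress factor CHOP, was at 268, 298 and 327 with atirmociclib and 237, 225 and 219 with vehicle (log2 fold change 0.38 ± 0.13 (SE), adjusted p = 0.029), a change lost in 4 of the 6 fits that left out 1 library, with an adjusted p of up to 0.11. ASNS shares 49.3% of its exonic bases with an unnamed gene on the same strand.

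p53 targets leaned lower, with 15 of 31 lower, 7 higher, 4 called lower, 1 called higher and a median of -0.26. For these genes and the BCL2 family below, the shares over all genes tested were 20.9% higher and 19.6% lower. DDB2, a DNA damage sensor, was at 213, 271 and 268 with atirmociclib and 645, 763 and 652 with vehicle (log2 fold change -1.46 ± 0.10 (SE), adjusted p = 1.3e-09), and PMAIP1, the cell death gene that encodes NOXA, at 106, 113 and 91.9 with atirmociclib and 269, 267 and 221 with vehicle (log2 fold change -1.27 ± 0.16 (SE), adjusted p = 2.4e-06). MDM2, which targets p53 for destruction, fell 1.25-fold and GADD45A was at 129, 150.3 and 193 with atirmociclib and 125, 136 and 129 with vehicle (log2 fold change 0.26 ± 0.15 (SE), adjusted p = 0.18). TP53INP1 was the 1 called rise, at 10162, 9697 and 9755 with atirmociclib and 4292, 4397 and 4334 with vehicle (log2 fold change 1.18 ± 0.03 (SE), adjusted p = 6.7e-15). In the BCL2 family, with 4 of 13 higher and 3 lower, BCL2 itself was called lower at 63, 38.7 and 105 with atirmociclib and 165, 158 and 179 with vehicle (log2 fold change -1.38 ± 0.33 (SE), adjusted p = 0.0025), whereas BCL2L1, which encodes BCL-XL, rose (log2 fold change 0.27 ± 0.05 (SE), adjusted p = 0.00039). BCL2L11, which encodes BIM, fell slightly (log2 fold change -0.27 ± 0.09 (SE), adjusted p = 0.023), and 4 of the 6 fits that left out 1 library lost this, with an adjusted p of up to 0.091. MCL1 rose 1.13-fold, a change lost without vehicle replicate 1 and with equal totals or quantile normalisation.

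Of 34 genes linked to senescence and its secretory products only 9 had enough signal to be tested. Of these 3 were higher and 4 lower, against 20.9% higher and 19.6% lower of all genes tested. LMNB1, which encodes lamin B1 of the nuclear envelope, was at 1602, 1568 and 1461 with atirmociclib and 4374, 4677 and 4685 with vehicle (log2 fold change -1.57 ± 0.06 (SE), adjusted p = 2.2e-13). HMGB2, a chromatin protein, was at 612, 698 and 722 with atirmociclib and 2994, 3144 and 3085 with vehicle (log2 fold change -2.18 ± 0.06 (SE), adjusted p = 4e-15), and the growth factor binding protein gene IGFBP3 fell 2.52-fold. GDF15, a stress-induced secreted factor, was at 10784, 13031 and 13414 with atirmociclib and 3987, 4033 and 4198 with vehicle (log2 fold change 1.60 ± 0.13 (SE), adjusted p = 7.8e-09). In the lysosome and autophagy list 24 of 40 rose, 3 fell and 3 were called higher, with a median of 0.24. Of all genes tested 3.87% were called higher. The cathepsin gene CTSF, the sialidase gene NEU1 and the autophagy gene GABARAPL1 rose 2.09-fold, 2.04-fold and 2.04-fold, and SQSTM1, which encodes the autophagy receptor p62, rose 1.51-fold without being called. CTSD rose as well (log2 fold change 0.60 ± 0.06 (SE), adjusted p = 6.8e-08).

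Of 39 interferon-response genes 12 were higher and 6 lower, with 4 called higher, 3 called lower and a median of 0.08, against 20.9% higher and 19.6% lower of all genes tested. The median was -0.0082 without atirmociclib replicate 2, 0.0019 with equal totals and 0.13 to 0.14 as each of the other libraries was left out. OASL, an antiviral protein, was at 51.9, 66.4 and 66.7 with atirmociclib and 12.5, 15.5 and 10.3 with vehicle (log2 fold change 2.20 ± 0.40 (SE), adjusted p = 0.00025). IFIT1 was at 47, 33.3 and 42.8 with atirmociclib and 16.3, 16.7 and 8.81 with vehicle and IFIT3 at 32.3, 36 and 31.8 with atirmociclib and 14.1, 3.9 and 6.63 with vehicle, with log2 fold changes of 1.53 and 2.05, all at low levels. CMPK2, a mitochondrial nucleotide kinase, went the other way, at 2.7, 9.7 and 8.78 with atirmociclib and 42.2, 41.2 and 41.1 with vehicle (log2 fold change -2.54 ± 0.45 (SE), adjusted p = 0.00017). Of 16 antigen presentation genes 9 rose, 1 fell and none was called, with a median of 0.35. The class I gene HLA-B and the class I light chain gene B2M rose 1.47-fold and 1.26-fold. In the list of P-TEFb and RNA polymerase II kinases, with 10 of 29 higher and 7 lower, the 1 called gene was HEXIM1, the protein that holds P-TEFb inactive, at 637, 629 and 673 with atirmociclib and 1524, 1578 and 1431 with vehicle (log2 fold change -1.22 ± 0.07 (SE), adjusted p = 4e-11). CDK9, the P-TEFb kinase, rose and POLR2A, the largest subunit of the polymerase, fell, with log2 fold changes of 0.42 and -0.44.

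Outside these lists the largest rises among genes with a mean of at least 100 normalised counts included genes of varied function. ANGPT2, a vascular growth factor, was at 194, 255 and 280.4 with atirmociclib and 10.7, 7.54 and 14.7 with vehicle (log2 fold change 4.38 ± 0.31 (SE), adjusted p = 1.8e-09). MBNL2, a splicing regulator, was at 135, 249 and 192 with atirmociclib and 30.2, 12.7 and 26.4 with vehicle. PPFIA4, a liprin, was at 248, 449.8 and 613 with atirmociclib and 79, 23.4 and 85.8 with vehicle, and RLN1, a relaxin hormone gene, at 619.8, 582 and 598 with atirmociclib and 105, 94.9 and 97.3 with vehicle. Their log2 fold changes were 3.04, 2.89 and 2.59. RLN1 had the closest replicates of these, and PPFIA4 the widest. TTN, which encodes the muscle protein titin, was at 936, 355 and 1256 with atirmociclib and 118, 97.7 and 172 with vehicle (log2 fold change 2.56 ± 0.48 (SE), adjusted p = 0.00032). POTEM and POTEJ rose 5.77-fold and 5.62-fold, but POTEJ is at least 98% identical to POTEI, POTEE and POTEF over 95.5% of its transcript, and POTEM is nearly identical to POTEG and POTEH over part of it, so the member of the family cannot be named with certainty. PCSEAT, a long non-coding RNA, was at 172, 159.8 and 223 with atirmociclib and 23.7, 49.7 and 21.2 with vehicle, 6.07-fold higher (adjusted p = 3.2e-08). The most abundant called rises besides KLK3 and TMPRSS2 were the nuclear RNA NEAT1, at 97707, 108829 and 111839 with atirmociclib and 50877, 42457 and 42523 with vehicle (log2 fold change 1.23 ± 0.06 (SE), adjusted p = 2.8e-11), the protease gene ADAMTS1, at 21658, 21703 and 21585 with atirmociclib and 10119, 10433 and 10431 with vehicle, and AIDA, at 20062, 19553 and 18908 with atirmociclib and 8964, 9363 and 10079 with vehicle. Among falls outside the cell cycle, DHRS2, a reductase gene, was at 13.5, 15.9 and 27.7 with atirmociclib and 224, 243 and 206 with vehicle (log2 fold change -3.55 ± 0.23 (SE), adjusted p = 6.1e-10).

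Most markers of other cell types were at low levels. Of the 8 basal, 11 neuroendocrine, 14 mesenchymal and 8 immune or endothelial markers, 1, 2, 10 and 1 had enough signal to be tested. Summed levels of the basal list were 63.3 to 89.6 with atirmociclib and 6.11 to 29.2 with vehicle, nearly all from KRT14, at 59.7, 88.5 and 71.4 with atirmociclib and 22.9, 25.2 and 4.73 with vehicle, while KRT5 and KRT17 were at 0. Summed levels of the neuroendocrine list were 107 to 201 with atirmociclib and 110.02 to 138 with vehicle. Most came from ENO2, at 94.4, 147 and 176 with atirmociclib and 93.3, 73.9 and 120 with vehicle. SYP, of the same list, was called lower, at 10.3, 6.61 and 9.33 with atirmociclib and 17.1, 26 and 14 with vehicle. The mesenchymal list summed to 5659 to 5972 with atirmociclib and 9423 to 9805 with vehicle. Most of this was FN1, at 4759, 4527 and 4963 with atirmociclib and 8761, 8512 and 8518 with vehicle. FN1 and ENO2 are named here after their values were seen. ACTA2 and TWIST1, smooth muscle actin and a mesenchymal transcription factor, were called higher. ACTA2 was at 62.1, 86.1 and 58.8 with atirmociclib and 24.4, 23.3 and 36.2 with vehicle, and TWIST1 at 136, 118 and 117 with atirmociclib and 48.3, 52.2 and 49.2 with vehicle. The immune and endothelial sum, 527 to 582 against 187 to 254, was nearly all VWF, with PECAM1 and CDH5 at or near 0. The part of these markers in the other results was not tested, and fewer cells of a type and less RNA per cell cannot be told apart in bulk RNA.

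Against atirmociclib at 1 µM for the same time, which asks whether the higher dose did more, 5 genes were called higher (0.0306%) and 10 lower (0.0612%). The adjusted p alone was passed by 205 genes that were higher at 2 µM (1.25%) and 153 that were lower (0.936%). These counts were small and unstable, ranging from 2 (without 2 µM replicate 1) to 11 (without 2 µM replicate 2) and from 1 (without 1 µM replicate 1) to 20 (without 2 µM replicate 2). Quantile normalisation gave 6 higher and 4 lower, so 40% of the calls were lower in place of 66.7%. Replication-dependent histones were lower at 2 µM for 29 of 46 genes, with a median difference of -0.43 on the log2 scale and 1 called. The called gene was H4C14 (log2 difference -5.28 ± 1.15 (SE), adjusted p = 0.023), whose reads could be split with its identical copy H4C15. This call was lost in 4 of the 6 fits that left out 1 library, with an adjusted p of up to 0.13. H1-5 was at 2020.2, 1908 and 1928 at 1 µM and 1224, 1318 and 1420.1 at 2 µM (log2 difference -0.57 ± 0.05 (SE), adjusted p = 3e-05). Of 44 mitotic regulators 9 were lower, among them MKI67 (log2 difference -0.34 ± 0.06 (SE), adjusted p = 0.0033), and of 53 replication genes none differed past the adjusted p, with a median of -0.04. HEXIM1 was lower at 2 µM than at 1 µM, where it was at 1052, 1107 and 991 (log2 difference -0.70 ± 0.07 (SE), adjusted p = 3e-05).

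ID1 and ID3 were lower at 1 µM than at 2 µM. At 1 µM ID1 was at 61.6, 75.8 and 87.3, under every value at 2 µM and with vehicle, and the log2 difference of 2 µM from 1 µM was 1.74 ± 0.30 (SE), adjusted p = 0.0045. ID3 was at 163, 212 and 205 at 1 µM (log2 difference 1.30 ± 0.20 (SE), adjusted p = 0.0025). Both differences passed 0.05 in each of the 6 fits that left out 1 library. TTN, at 159.8, 137 and 236 at 1 µM, was higher at 2 µM (log2 difference 2.10 ± 0.48 (SE), adjusted p = 0.028), but 4 of those 6 fits lost it, with an adjusted p of up to 0.137. For TMPRSS2 the log2 difference between doses was -0.01 ± 0.07 (SE), adjusted p = 0.97, with a 95% interval of -0.15 to 0.13, and for KLK3 it was -0.05 ± 0.05 (SE), adjusted p = 0.67, with an interval of -0.14 to 0.05.

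Against AU2-94 at 2 µM, the other CDK4-selective inhibitor, 68 genes were called higher with atirmociclib (0.416%) and 278 lower (1.7%). The adjusted p alone was passed by 1814 higher genes (11.1%) and 1427 lower genes (8.73%). Quantile normalisation gave 109 higher and 198 lower, so the share of calls that were lower was 64.5% in place of 80.3%. Cell cycle genes were lower with atirmociclib. Of 46 histones 41 were lower with atirmociclib and 32 were called, with a median log2 difference of -1.31, and 36 of 44 mitotic regulators, 46 of 61 kinetochore genes and 34 of 53 replication genes were lower, with medians of -0.73, -0.62 and -0.39. H1-5 was at 5190.5, 5028 and 5015 with AU2-94 (log2 difference -1.94 ± 0.05 (SE), adjusted p = 1.8e-14), and MKI67 at 6068, 5778 and 6235 (log2 difference -1.33 ± 0.06 (SE), adjusted p = 1.1e-11). Both lay between the atirmociclib and vehicle values. CYP1A1, a drug-metabolising enzyme that the aryl hydrocarbon receptor induces, was at 226, 119.8 and 169 with AU2-94, 53.6, 17.3 and 20.3 with atirmociclib and 6.24, 13.2 and 9.7 with vehicle (log2 difference -2.59 ± 0.37 (SE), adjusted p = 4.8e-05). MMP7, a matrix protease gene, was at 47, 54.2 and 57 with AU2-94 and 112, 187 and 185 with atirmociclib (log2 difference 1.56 ± 0.24 (SE), adjusted p = 9.8e-05). ID1, at 116.3, 56.3 and 88.9 with AU2-94, was higher with atirmociclib (log2 difference 1.57 ± 0.30 (SE), adjusted p = 0.00091).

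Androgen-induced genes differed in part, with 20 of 50 higher and 6 lower with atirmociclib than with AU2-94 and a median of 0.16. The counts here stand beside 11.1% higher and 8.73% lower of all genes tested in this comparison. TMPRSS2 was higher with atirmociclib (log2 difference 0.57 ± 0.07 (SE), adjusted p = 7e-06). Hypoxia targets had 3 of 33 higher, 5 lower and a median of -0.06, and NDUFA4L2 was lower with atirmociclib (log2 difference -1.07 ± 0.36 (SE), adjusted p = 0.044).

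Against ribociclib at 2 µM, 34 genes were called higher with atirmociclib (0.208%) and 104 lower (0.636%), and the adjusted p alone was passed by 789 (4.83%) and 711 (4.35%). Histones were again lower, 41 of 46 with 24 called and a median of -1.02, as were 35 of 44 mitotic regulators and 32 of 53 replication genes, with medians of -0.55 and -0.31. H2AC12 was at 296, 401 and 325 with ribociclib and 123, 101 and 104 with atirmociclib (log2 difference -1.62 ± 0.14 (SE), adjusted p = 4.2e-07). RAB31, a small GTPase gene, was at 188, 219.6 and 168 with ribociclib, 45.2, 34.6 and 54.7 with atirmociclib and 60.7, 92.5 and 144 with vehicle (log2 difference -2.09 ± 0.28 (SE), adjusted p = 7.9e-05). ACTRT3, an actin-related gene, and BIRC3, an inhibitor of apoptosis, were higher with atirmociclib. ACTRT3 was at 123, 92.2 and 100.1 with ribociclib against 278, 298 and 289 (log2 difference 1.46 ± 0.14 (SE), adjusted p = 8.7e-07), and BIRC3 at 136, 68.2 and 125 against 287, 192 and 310.3 (log2 difference 1.28 ± 0.23 (SE), adjusted p = 0.0014). HEXIM1, at 1499.7, 1681 and 1516 with ribociclib, was lower with atirmociclib (log2 difference -1.27 ± 0.07 (SE), adjusted p = 5.6e-10). ID1 and ID3 differed by -0.08 and -0.00 on the log2 scale, with 95% intervals of -0.71 to 0.54 and -0.43 to 0.42. Of 50 androgen-induced genes 6 were higher and 8 lower with atirmociclib, with 1 called lower and a median of -0.06. Of 33 hypoxia targets none differed past the adjusted p, and for KLK3 the log2 difference was 0.08 ± 0.05 (SE), adjusted p = 0.35, with an interval of -0.02 to 0.17.

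**Figure D2:**
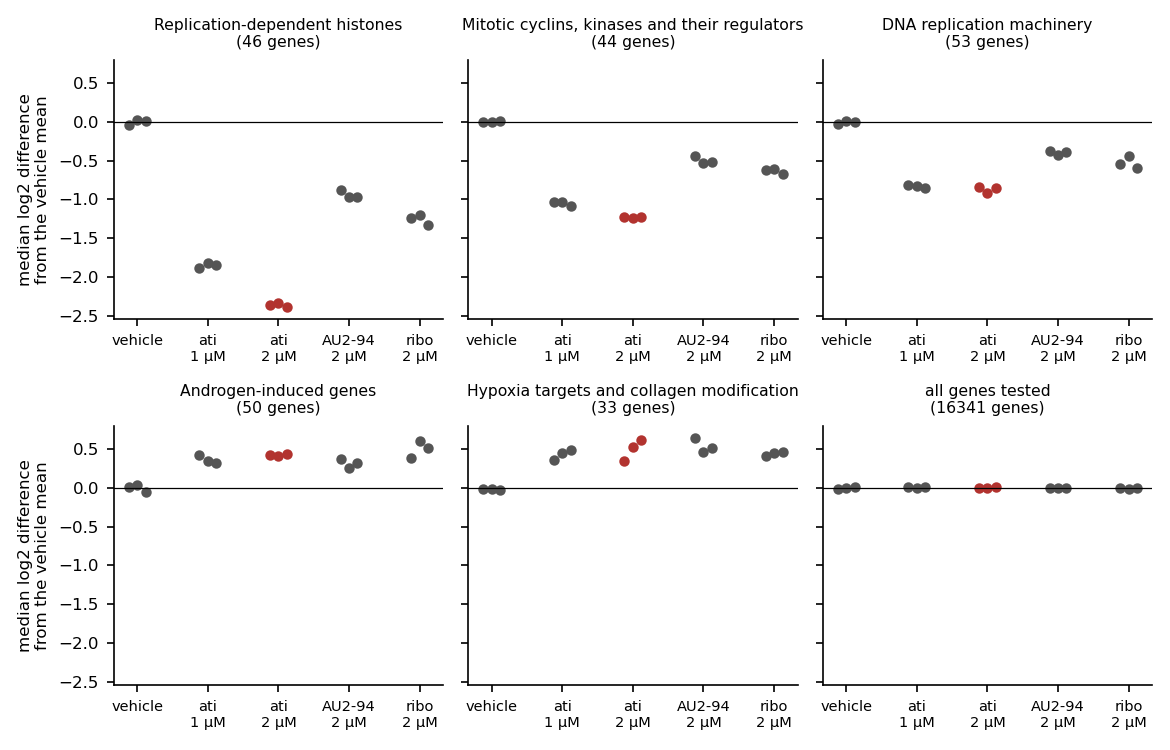
Median over the members of a list (number in brackets) of the log2 difference from the vehicle mean, for each library at 72 h (y axis) in 5 groups (x axis), with atirmociclib 2 µM in red. For histones the 3 libraries at 2 µM of atirmociclib lie from -2.39 to -2.33, below those at 1 µM (-1.89 to -1.82), of ribociclib (-1.33 to -1.20) and of AU2-94 (-0.97 to -0.88). For the androgen-induced list the libraries at 2 µM of atirmociclib lie from 0.41 to 0.44, of ribociclib from 0.39 to 0.61 and of AU2-94 from 0.25 to 0.38.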

How the data were processed

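Total RNA of LNCaP cells was sequenced in paired reads. Upstream, the authors ran nf-core/rnaseq with STAR 2.6.1d against GRCh38 and used DESeq2. The deposited table gives normalised counts, a signal proportional to reads whose values are not whole, for 29872 genes, of which 29856 matched a symbol. The counter, annotation release and strand setting are not given in the sources used here, and the depth of each library is unknown from these values.

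Genes with at least 10 normalised counts in at least 3 of the 18 libraries at 72 h were tested with limma 3.58.1 (R 4.3.3, eBayes with trend) after adding a pseudocount of 1 and taking log2, which understates fold changes of low genes. All 6 groups at 72 h shared the fit. P-values were two-sided and adjusted by the Benjamini-Hochberg method within each comparison. The study's methods describe the 3 libraries of a group as biological replicates of the cell line. A level of 3 normalised counts served as the floor, which covers counting error only. Genes were named by rule: the 10 largest called rises and falls with a mean of at least 100 and groups apart, the 5 most abundant called genes each way, landmark genes and up to 3 largest called members of each of 31 lists, and the 3 largest called differences each way from other treatments. A gene on the Y chromosome and some other genes that the rule gives are not reported here. FN1, ENO2 and GTSE1 were added. Members and lists were chosen with earlier results of these data known. The steps were tested on simulated data. Positions are from GENCODE on GRCh38, and copies (at least 100 bases at 98% identity) from blastn 2.17.0.

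The labels name replicate numbers as batches, so a fit with the replicate block was run as an alternative to the main fit, which has none. Deviations of same-numbered libraries correlated across genes at -0.015, 0.040 and 0.038, and of others at -0.051 to 0.014. With the replicate block 634 genes were called higher and 593 lower. Alternatives varied the pseudocount, filter, scaling, block, libraries fitted, trend and each library in turn.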

Additional observations from a re-analysis of the deposited data

How the results depend on the processing

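For atirmociclib 2 µM against vehicle the 633 rises and 599 falls became 231 and 335 with a mean of at least 100 required, where fewer genes were tested, and lay between 567 and 634 and between 553 and 617 as each library was left out. The replicate block gave 634 and 593 and changed the side of the threshold of no named gene. Against 1 µM, the 5 rises became 13 without a filter and 8 with only the 6 libraries compared, and the 10 falls became 2 with a mean of at least 100, 6 with only the 6 libraries, 4 with quantile normalisation and 5 without the trend. Leaving out single libraries gave 2 to 11 rises and 1 to 20 falls. Against AU2-94, the 68 rises became 45 with equal totals, 17 with a mean of at least 100 and 109 with quantile normalisation, and the 278 falls became 124 with a mean of at least 100. Against ribociclib, the 34 rises became 8 with a mean of at least 100 and 22 with a pseudocount of 8, and the 104 falls became 50 with a mean of at least 100. Apart from the mean filter, the cause was not tested.

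Of the named genes, only some that did not pass the test turned direction. The log2 fold change of FASN was -0.061 with equal totals and -0.14 with quantile normalisation (adjusted p = 0.034), and -0.025 to 0.036 as libraries were left out. Leaving out single libraries gave -0.025 to 0.17 for CCNE1, -0.42 to 0.060 for EGR1, -0.036 to 0.017 for RPLP0, which was at -0.12 with quantile normalisation (adjusted p = 0.013), and -0.024 to 0.023 for GAPDH. With equal totals the median of all genes moved to -0.07, the median of luminal factors from 0.22 to 0.14, and those of the cholesterol, P-TEFb, BCL2 family and MAX network lists, all within 0.1 of 0, to -0.0076, -0.00068, 0.016 and 0.0069. That of luminal factors was also 0.14 with a mean of at least 100. As single libraries were left out, these last 4 lists lay at 0.042 to 0.14, 0.044 to 0.085, 0.015 to 0.11 and 0.045 to 0.13. The median of immediate early genes ranged from -0.078 to 0.068 over all settings. The median of ribosomal proteins was -0.087 with equal totals and -0.093 with quantile normalisation, and that of nuclear respiratory genes -0.11 and -0.062. The depth behind low values is unknown here.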
